A study of Mus musculus with 12 samples.

Results

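Expression of 9 Wnt pathway genes was followed in embryoid bodies (EBs) and embryonic stem cells (ESCs) of the mouse. EBs are clumps that ESCs form when they are left to differentiate in suspension. The genes were chosen by symbol from a deposited table of 19708 transcript entries: the ligand Wnt7b, the receptor Fzd2, the transducer Ctnnb1 (beta-catenin), the TCF/LEF factors Tcf7, Lef1 and Tcf7l1, and the target genes Axin2, Sp5 and Cdx1. All 9 were found, and 8 of them passed the filter on low levels. Wnt7b and Fzd2 were already known to be high in Mettl3-KO ESCs when the list was drawn up, so the KO against WT comparison in ESCs is given as a description with no test for all 9 genes.

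The 12 libraries came from C57BL/6 cells in 4 conditions, each at 0, 4 and 8 h after actinomycin, which stops transcription. The conditions were Mettl3-KO EBs, WT EBs, Mettl3-KO ESCs and WT ESCs, with 1 library for each condition and time. Mettl3 is the methyltransferase that places m6A, a methyl mark, on adenosines of mRNA. ESCs of both genotypes were grown without serum in N2B27 medium with LIF and the 2i inhibitors CHIR99021 and PD0325901, and EBs of both genotypes in a serum medium described without these inhibitors. The labels give the EB culture time only as a range of days, and give neither the kind of Mettl3 allele nor the number of KO lines. CHIR99021 was therefore present in one cell type and not described for the other, so medium and cell type cannot be told apart in any EB against ESC comparison. Nothing in the labels says that the 3 times of a condition were separate cultures, so a p-value here speaks of scatter among these libraries and not of variation among cultures.

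Canonical Wnt signalling turns on the stability of beta-catenin. Without a ligand, a destruction complex that contains Axin, Apc and the kinase Gsk3 marks beta-catenin for degradation; a Wnt ligand bound to a Frizzled receptor, or the Gsk3 inhibitor CHIR99021, blocks this step. Stable beta-catenin then acts on genes bound by TCF/LEF factors. In mouse ESCs the repressor Tcf7l1 holds down naive pluripotency genes such as Nanog, Klf2, Esrrb and Tfcp2l1, and beta-catenin relieves that repression.

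The measure is the authors' normalized level per RefSeq transcript from reads at the 3′ end, which lets a gene be compared between libraries but not with another gene. The libraries held about 208874 to 666805 read equivalents, a small depth for low genes, and 1 read was worth a level of 10.6 to 32.7. Column totals differed by up to 3.02-fold and were lowest in WT EBs at 8 h. As a guide to background, the 95th percentile of 1420 genes of families silent in these cells lay at levels of 44.2 to 71.8 in EBs and 18.8 to 30.7 in ESCs. Mettl3 itself had levels of 16.8, 40.7 and 83.9 in KO EBs at 0, 4 and 8 h, against 175, 86.0 and 77.4 in WT EBs. Its levels were 98.1, 65.4 and 41.8 in KO ESCs, against 251, 64.8 and 113 in WT ESCs. KO lay below WT at 0 h in both cell types, but the ranges over the 3 times overlapped, so the genotypes are those of the labels. Reads at the 3′ end check the genotype only where the deletion reaches them, which the labels do not say. All 10 pluripotency markers were above the silent families' 95th percentile in every ESC library and every KO EB library, and 8 to 10 in WT EB libraries. The EB libraries differed by genotype: the summed level of 11 endoderm markers was 349 to 569.9 in KO EBs and 5465 to 9183 in WT EBs.

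**Figure D1:**
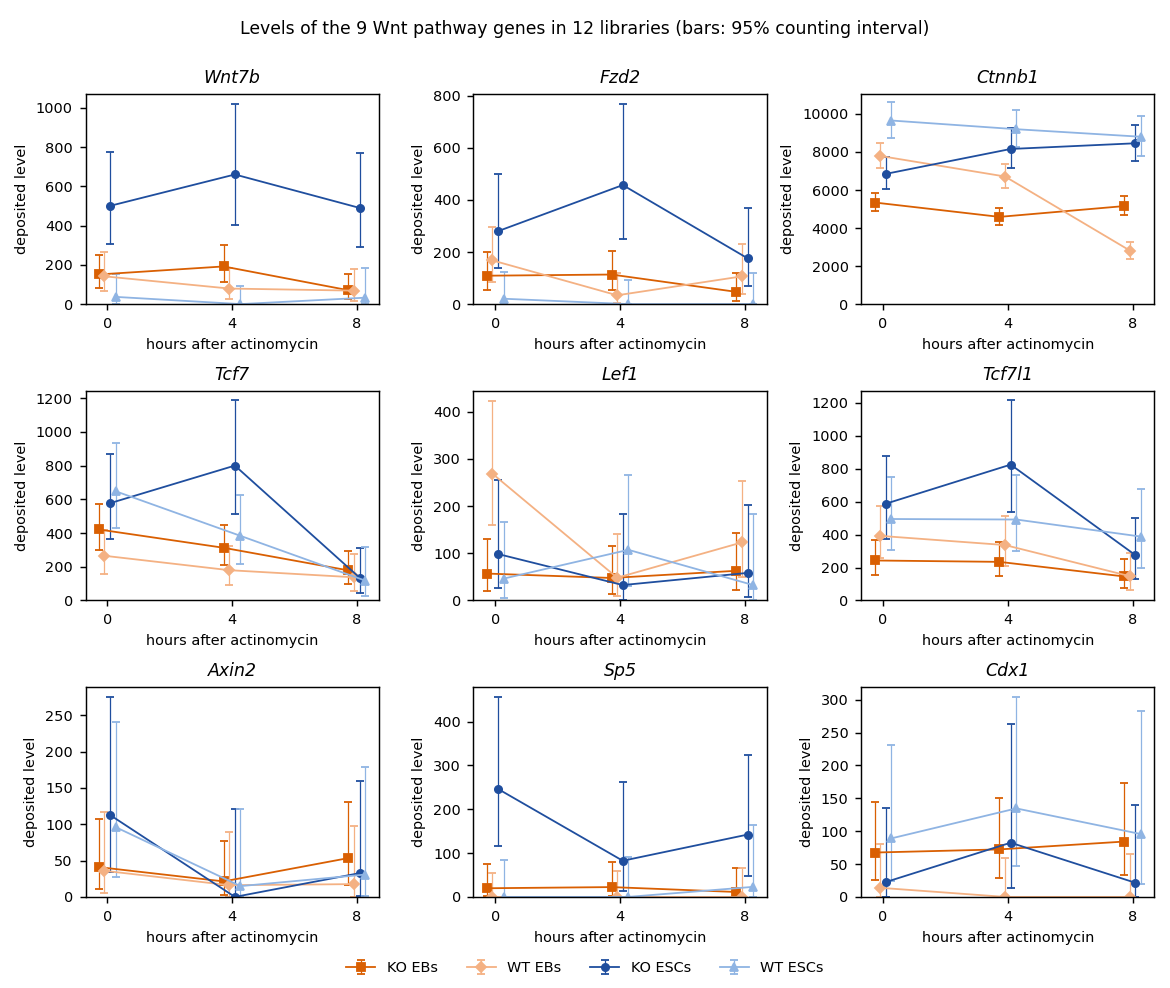
Deposited level (linear axes from 0) of each gene against hours after actinomycin in KO EBs, WT EBs, KO ESCs and WT ESCs; each point is 1 library and each bar the 95% Poisson interval of its read equivalents. Wnt7b, Fzd2 and Sp5 were highest in KO ESCs, and Cdx1 was lowest in WT EBs.

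Wnt7b and Fzd2, the ligand and the receptor of the list, shared a profile: high in KO ESCs, at or near 0 in WT ESCs and between these in EBs of both genotypes. Wnt7b encodes a secreted ligand, and lies at chr15:85535437-85581821 on GRCm38. Its levels at 0, 4 and 8 h were 500.4, 660.3 and 489.8 in KO ESCs, against 36.7, 0 and 32.7 in WT ESCs. In EBs Wnt7b had 150.9, 191.8 and 70.6 in KO, against 141.5, 79.2 and 68.6 in WT. The KO ESC libraries stood above every other library, while the KO and WT EB libraries overlapped. By mean level over the 3 times the order was KO ESCs with 550.2, KO EBs with 138, WT EBs with 96.4 and WT ESCs with 23.1, and KO EBs and WT EBs were neighbours that did not differ beyond their spread.

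At 0 h, before any loss of transcript, the Wnt7b level of KO ESCs was 13.6 times that of WT ESCs, with a 95% counting interval of 2.92 to 177 from 19.9 and 1.60 read equivalents. At 4 h it was at least 8.89-fold higher, taking 3 reads in the library of WT ESCs as the bound for its 0. At 8 h it was 15.0 times as high (2.37 to 623). The fitted KO minus WT difference in ESCs was 4.46 on the log2 scale, a description that also chose the gene.

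Fzd2, a Frizzled receptor with its gene at chr11:102604431-102608058, had levels of 280.1, 457.4 and 176 in KO ESCs, against 20.7, 0 and 0 in WT ESCs. In EBs it had 109, 114 and 47.0 in KO, against 168, 33.8 and 107 in WT. All 3 KO ESC libraries were above all WT ESC libraries, and the EB ranges overlapped. The order by mean level was KO ESCs with 304.5, WT EBs with 103, KO EBs with 89.9 and WT ESCs with 6.89; the EB conditions again did not differ beyond their spread. The KO level in ESCs was 13.6 times the WT level at 0 h (1.84 to 826), at least 6.16-fold higher at 4 h and at least 1.79-fold higher at 8 h. No WT ESC library held Fzd2 above the silent families' 95th percentile. Neither did WT EBs at 4 h nor KO EBs at 8 h. Wnt7b in WT EBs at 8 h was also not above it.

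In EBs neither gene passed the test for KO against WT. The fitted difference was 0.44 ± 0.59 for Wnt7b (log2 ± SE, limma adjusted p = 0.78) and -0.04 ± 0.63 for Fzd2 (limma adjusted p = 0.99). With errors of this size, a missed threshold does not show that the genotypes were alike. For Fzd2 the sign itself depended on the library: the difference became 1.13 when WT EBs at 0 h or WT EBs at 8 h were left out.

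Deposited levels of Wnt7b and Fzd2 were lower in EBs than in ESCs at each of the 3 times in KO, and higher in EBs than in ESCs at each of the 3 times in WT, where counts were small. The WT EB to ESC ratio of Wnt7b was 3.85 at 0 h (0.72 to 53.0), at least 1.07 at 4 h and 2.1 at 8 h (0.20 to 104). For Fzd2 it was 8.13 at 0 h (1.11 to 494) and at least 1.09 at 8 h, and at 4 h both libraries were at or under 3 reads. The sign in WT is therefore not established at each time. The fitted EB minus ESC differences were -2.02 in KO and 2.00 in WT for Wnt7b, and -1.65 in KO and 2.88 in WT for Fzd2. The WT sizes depend on the pseudocount and ranged without single libraries from 1.22 to 3.55 for Wnt7b and from 1.72 to 3.47 for Fzd2. These share the ESC libraries that picked the genes and carry no test.

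Ctnnb1 encodes beta-catenin, the transducer of the pathway, at chr9:120933400-120960507. It was the member with the deepest counts, 160 to 530 read equivalents a library. Its levels at 0, 4 and 8 h were 5344, 4587 and 5155 in KO EBs, compared with 7792, 6710 and 2817 in WT EBs. In ESCs they were 6849, 8159 and 8459 in KO, against 9655, 9198 and 8802 in WT. The ranges overlapped in EBs, where WT at 8 h was the lowest of all libraries, and did not overlap in ESCs, where KO lay below WT. The 0 h ratio of KO to WT was 0.69 in EBs (0.61 to 0.78) and 0.71 in ESCs (0.61 to 0.83). Both intervals cover counting error only. By 8 h the ratio was 1.83 in EBs (1.52 to 2.21) and 0.96 in ESCs (0.81 to 1.14).

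Over the 3 times Ctnnb1 did not pass the test in EBs, with a KO minus WT difference of -0.07 ± 0.17 (limma adjusted p = 0.89). It turned to 0.10 without WT EBs at 4 h, and was called at -0.49 with ribosomal protein scaling (limma adjusted p = 0.024), where the median of all genes was -0.30. The description for ESCs was -0.24 on the same scale.

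Of the TCF/LEF factors, Tcf7, which can activate or repress targets, lies at chr11:52246527-52283383. Its levels were 420.9, 312 and 178 in KO EBs, compared with 265, 179.7 and 138 in WT EBs. In ESCs they were 577, 799.7 and 135 in KO, against 647, 383 and 118 in WT. The KO EB value was above the WT EB value at all 3 times, but the ranges overlapped and the difference of 0.59 ± 0.40 did not pass (limma adjusted p = 0.48). In ESCs the sign differed between times.

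Tcf7l1, the repressor named above, lies at chr6:72626371-72789045. It had levels of 243, 234 and 146 in KO EBs, compared with 392, 336 and 147 in WT EBs. In ESCs it had 587, 824 and 275 in KO, against 494, 491 and 387 in WT. Its level in KO EBs was below that in WT EBs at each time, with overlapping ranges and a difference of -0.40 ± 0.35 that did not pass (limma adjusted p = 0.62).

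Lef1, an activator that is itself a Wnt target in several tissues, lies at chr3:131110297-131224357 and was low throughout. Its levels were 57.1, 47.7 and 63.0 in KO EBs, compared with 269, 48.3 and 123 in WT EBs, and 98.6, 32.7 and 58.5 in KO ESCs, against 46.4, 107 and 32.7 in WT ESCs. The library of WT EBs at 0 h stood above all others. There the KO to WT ratio was 0.21 with a counting interval of 0.065 to 0.58, from 5.38 and 18.3 read equivalents. At 4 h the EB ratio was 0.99 (0.18 to 6.54), and the difference over the 3 times, -0.99 ± 0.64, did not pass (limma adjusted p = 0.45). Without the 0 h or the 8 h library of WT EBs it became 0.17.

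**Figure D2:**
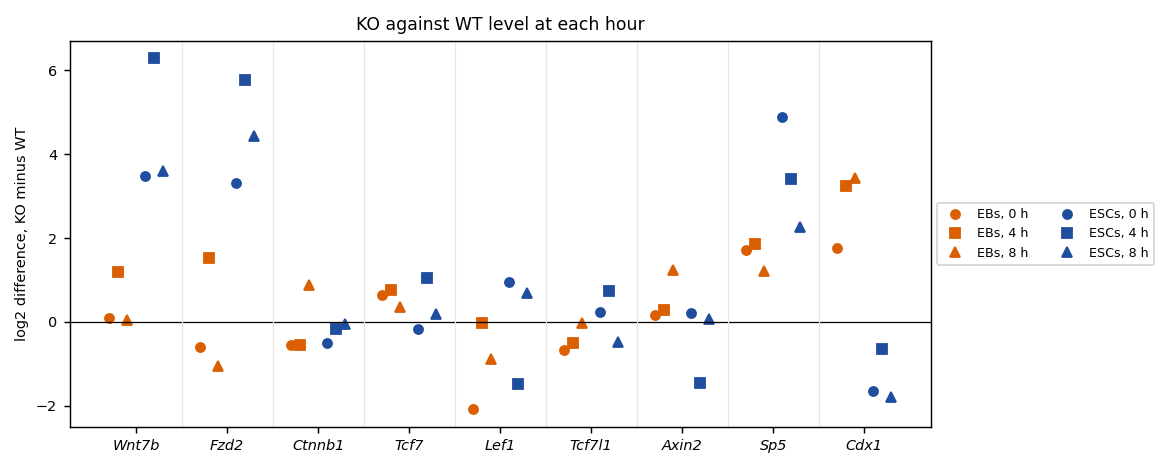
Log2 difference of level, KO minus WT, in EBs and in ESCs for each of the 9 genes; each point compares 1 KO with 1 WT library at 0, 4 or 8 h, after adding 8.58 to each level. Wnt7b, Fzd2 and Sp5 were above 0 at every hour in ESCs, and Cdx1 lay above 0 in EBs and below 0 in ESCs.

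Among the targets, Sp5 and Cdx1 differed between conditions, while Axin2 was near background. Axin2, a destruction complex scaffold that is induced by the pathway it inhibits, had a mean level of 39.4 over the 12 libraries and did not pass the filter of 42.9. Its gene lies at chr11:108917828-108950783. Levels were 41.0, 21.3 and 53.4 in KO EBs, compared with 35.9, 16.1 and 17.6 in WT EBs, and 113, 0 and 32.7 in KO ESCs, against 96.0, 14.8 and 30.7 in WT ESCs. Its levels at 0 h were higher in ESCs than in EBs of the same genotype, but with 2.44 to 4.48 read equivalents the EB to ESC ratios were 0.36 (0.068 to 1.83) in KO and 0.37 (0.044 to 2.33) in WT, and a difference was not detectable at this depth.

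Sp5 is a transcription factor and a direct Wnt target, at chr2:70474923-70477726. It had levels of 246, 82.5 and 142 in KO ESCs, against 0, 0 and 22.9 in WT ESCs. In EBs it had 19.7, 22.4 and 11.2 in KO and was listed at 0 in all 3 WT libraries. The KO ESC libraries were the only ones above the silent families' 95th percentile. At 0 h the level of KO ESCs was at least 3.58-fold higher than that of WT ESCs, at 4 h both were at or under 3 reads, and at 8 h the ratio was 6.21 with an interval of 0.56 to 1121. In EBs both genotypes were at or under 3 reads, so no fold is given. Sp5 in KO ESCs rested on 9.80, 2.52 and 5.30 read equivalents.

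Sp5 was also the member with a TCF/LEF motif in the window searched. RefSeq promoters on GRCm38.p6 were available for 6 members, 11 windows of 250 bases upstream of a start. The letters CTTTGAT, or ATCAAAG on the other strand, occurred in the Sp5 window alone, against 3.21% of 32851 such windows. The Sp5 window is shown with that of Axin2, a target near background in most libraries, which lacked the letters. The capitals mark the motif, which begins 104 bases before the Sp5 start. Sp5 spans chr2:70474673-70474922 and Axin2 chr11:108920099-108920348, both on the plus strand. The Axin2 window lies inside the gene interval given above, and the bases before the start of that interval, 108917828, were not searched.
Sp5: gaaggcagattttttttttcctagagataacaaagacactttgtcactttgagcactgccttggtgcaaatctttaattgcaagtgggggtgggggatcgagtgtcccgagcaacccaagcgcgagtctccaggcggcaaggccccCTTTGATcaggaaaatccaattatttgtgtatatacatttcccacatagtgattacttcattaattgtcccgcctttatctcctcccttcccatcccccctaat
Axin2: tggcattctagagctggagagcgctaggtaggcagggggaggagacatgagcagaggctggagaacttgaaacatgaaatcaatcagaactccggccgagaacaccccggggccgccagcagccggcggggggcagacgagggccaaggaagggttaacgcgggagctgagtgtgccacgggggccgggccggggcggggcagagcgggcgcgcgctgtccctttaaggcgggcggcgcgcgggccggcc
A match of letters is a description and not evidence of binding.

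Cdx1 is a caudal-type homeobox factor and Wnt target, at chr18:61018862-61036199, and it was the one member called between genotypes in EBs. It had levels of 67.5, 72.3 and 84.2 in KO EBs, compared with 13.8, 0 and 0 in WT EBs. In ESCs the order was the other way, with 22.6, 82.5 and 21.5 in KO, against 89.1, 135 and 95.5 in WT. Neither pair of ranges overlapped. All 3 KO EB libraries and all 3 WT ESC libraries, but no WT EB library, were above the silent families' 95th percentile. Cdx1 rose in KO EBs by 2.81 ± 0.69 on the log2 scale relative to WT EBs (limma adjusted p = 0.018), higher at 3 of 3 times. Its mean level was 57.0 over the 12 libraries, against the filter of 42.9, and 74.6 in KO EBs. It passed the filter on low levels partly through KO EBs, so this p-value carries that selection. Genes called higher in this comparison were 7.66% of the 12704 tested and genes called lower 1.56%, so 1 call among 8 members is near the background. This balance depends on scaling, with 973 genes higher and 198 lower as deposited, 635 and 359 with equal column totals, 654 and 274 with median-ratio scaling and 414 and 563 with ribosomal protein scaling. Ranges did not overlap for 2 of 9 members, Cdx1 and Sp5, both higher, against 9.58% of genes higher and 7.4% lower.

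The Cdx1 call rested on small counts. KO EBs held 6.36, 6.78 and 7.06 read equivalents and WT EBs 0.94 at 0 h, where the ratio of 4.88 had an interval of 0.58 to 272. At 4 and 8 h the level was at least 1.50-fold and 1.60-fold higher. The fitted size depended on the pseudocount, 1.50 to 4.19, and the call was lost when any 1 of the 6 EB libraries was left out (adjusted p 0.061 to 0.32). The difference without each ranged from 2.58 to 3.27. Without both EB libraries of 8 h it was 3.24 (adjusted p = 0.53). Endoderm markers moved with genotype in the same libraries: 4 to 7 of 11 were above the silent families' 95th percentile in KO EBs and 8 to 11 in WT EBs, with Sox17 and Foxa2 listed at 0 in KO EBs at 8 h and Foxa2 in WT EBs at 8 h. Mesoderm and primitive streak markers were higher in KO, as Cdx1 was, with sums of 1365 to 1833 in KO EBs and 353 to 1356 in WT EBs. The summed level of trophoblast markers was lower in KO EBs (1577 to 2941 and 3425 to 5924). So was that of fibroblast and feeder markers (895 to 1054 and 2137 to 3083). Krt8 and Krt18 made up most of the trophoblast sum of WT EBs, with levels of 2943 and 1677 at 0 h. Single genes of that list did not all follow its sum. Krt8, Krt18, Krt19 and Elf5 were lower in KO EBs at each time, but Tfap2c and Eomes were higher at each time. Neural sums overlapped (526 to 768 and 457 to 663). The part of these marker lists in the Cdx1 result was not tested, and in bulk samples fewer cells of a type and less RNA per cell cannot be told apart.

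In ESCs, by description, 3 of 9 members had KO levels above all WT levels and 2 of 9 below. The background there was 14.8% and 8.12% of genes, and 10.9% called higher and 3.27% called lower (1381 and 416 genes, against 1050 and 670 with median-ratio scaling). Trophoblast markers moved with Wnt7b, Fzd2 and Sp5: 6 to 7 of 10 were above the silent families' 95th percentile in KO ESCs and 3 to 6 in WT ESCs, with summed levels of 3118 to 4484 and 343 to 575. Krt7 was at 0 in all WT ESC libraries, and Elf5 was at 0 in all ESC libraries of both genotypes. Mesoderm and primitive streak markers summed to 2041 to 2790 in KO ESCs, against 621 to 1575 in WT ESCs. Most of each sum was again Mesp1, with 1705 to 2438 in KO ESCs and 398 to 1308 in WT ESCs. Mesp2 was also higher in KO ESCs at each time, while T and Hand2 were at 0 in all KO ESC libraries. Neural markers were lower, with 645 to 739 in KO ESCs and 832 to 976 in WT ESCs. Pluripotency markers summed to 45870 to 52643 in KO ESCs and 80181 to 90614 in WT ESCs. Their part in these results was not tested.

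Between cell types, Cdx1 and Ctnnb1 fell in WT EBs relative to WT ESCs, and Ctnnb1 and Tcf7l1 fell in KO EBs relative to KO ESCs. Cdx1 in WT differed by -3.26 ± 0.69 (limma adjusted p = 0.0021), lower at 3 of 3 times. Cdx1 passed the filter partly through WT ESCs, where its mean was 106, so this p-value carries the same selection. In KO its difference was 0.91 ± 0.69 (limma adjusted p = 0.35), with the KO EB level above the KO ESC level at 2 of 3 times. The WT value rested on 0.94, 0 and 0 read equivalents in EBs, against 3.88, 5.44 and 2.92 in ESCs, and ran from -4.67 to -1.86 with the pseudocount. At 0 h the ratio was 0.16 (0.0026 to 1.66), and at 8 h both libraries were at or under 3 reads. The call held under each other scaling and without each single library (-3.72 to -3.03). Without both EB libraries of 8 h the adjusted p was 0.059, in a range of 0.00155 to 0.059 over the settings other than single libraries. Other cell types' markers moved in the same comparison: endoderm markers summed to 5465 to 9183 in WT EBs and 380 to 495 in WT ESCs, and trophoblast markers to 3425 to 5924 and 343 to 575. In KO these sums were 349 to 569.9 in EBs and 421 to 520 in ESCs for endoderm, and 1577 to 2941 and 3118 to 4484 for trophoblast. Pluripotency markers summed to 10186 to 42939 in WT EBs and 80181 to 90614 in WT ESCs. Their part in these results was not tested.

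Ctnnb1 differed by -0.63 ± 0.17 in KO (limma adjusted p = 0.018) and -0.80 ± 0.17 in WT (limma adjusted p = 0.0024), lower in EBs at 3 of 3 times in both, with no overlap of ranges. Among the 9 members the EB range lay below the ESC range for 5 and above it for 0 in KO, against 36.8% and 3.53% of genes, and below it for 2 and above it for 2 in WT, against 23.6% and 5.88%. Tcf7l1 differed by -1.30 ± 0.35 in KO (limma adjusted p = 0.017), where the ranges did not overlap, and by -0.74 ± 0.35 in WT (limma adjusted p = 0.13). Genes called lower were 23.2% of all tested in KO and 29.1% in WT, and genes called higher 0.929% and 3.49%. That balance turned with scaling: KO had 118 genes higher and 2948 lower as deposited, and 144 and 93 with equal column totals, 102 and 70 with median-ratio scaling and 93 and 525 with ribosomal protein scaling. WT had 444 higher and 3701 lower as deposited, and 1421 and 612, 1028 and 980, and 1167 and 613 under those scalings in the same order. The median of all genes was itself -0.61 in KO and -0.50 in WT, about the size of the Ctnnb1 difference.

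The Ctnnb1 and Tcf7l1 calls depend on the deposited scaling. With equal column totals the Ctnnb1 difference became 0.05 in KO and 0.11 in WT, with ribosomal protein scaling -0.25 in KO and 0.09 in WT, and with median-ratio scaling 0.05 in KO and -0.11 in WT. Tcf7l1 in KO was lower under each of the scalings, by -0.63, -0.64 and -0.93, but not called (adjusted p 0.14 to 0.42). Both Ctnnb1 calls were also lost with additive time terms, with no variance trend and without both EB libraries of 8 h, and the Tcf7l1 call without the trend and without those libraries. Ctnnb1 in WT was also lost without WT EBs at 0 h or at 8 h, at -0.46 in both fits. Ctnnb1 in KO was lost without any 1 of the 6 KO libraries, at -0.76 to -0.57. Tcf7l1 in KO was lost without KO EBs at 0 h, KO EBs at 8 h or KO ESCs at 4 h, at -1.10 for the EB libraries and -0.96 for the ESC library.

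The other factors did not pass. Tcf7 differed by -0.46 ± 0.40 in KO and -0.70 ± 0.40 in WT (limma adjusted p = 0.41 and 0.20). Lef1 differed by -0.06 ± 0.64 in KO and 0.99 ± 0.64 in WT (limma adjusted p = 0.96 and 0.26). Both changed sign under other settings. For Sp5 the difference was -2.55 in KO, given as a description with no test, and in WT all EB libraries were at 0.

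**Figure D3:**
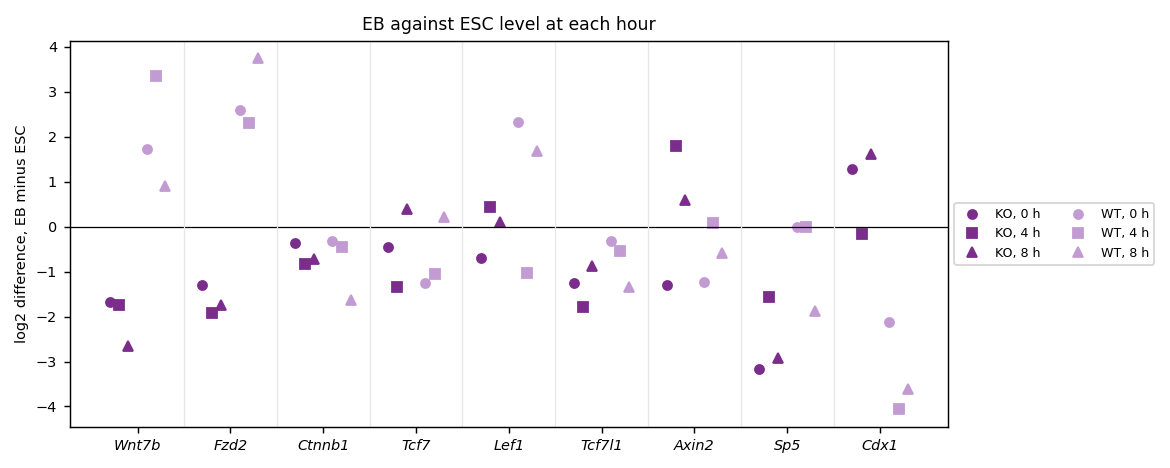
Log2 difference of level, EB minus ESC, in KO and in WT for each of the 9 genes; each point compares 1 EB with 1 ESC library at 0, 4 or 8 h, after adding 8.58 to each level. Wnt7b and Fzd2 lay below 0 in KO and above 0 in WT at every hour, and Cdx1 in WT lay below 0 at every hour; the added 8.58 sets the size of points against a library at 0.

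After actinomycin, slopes were estimated for the 3 members with at least 10 read equivalents at 0 h in all 4 conditions, and were not tested against each other. Tcf7 fell, by 0.20 ± 0.04 per hour on the log2 scale as the mean of the 4 slopes (limma adjusted p = 0.0039). The mean slope was -0.11 ± 0.04 for Tcf7l1 (limma adjusted p = 0.053) and -0.04 ± 0.02 for Ctnnb1 (limma adjusted p = 0.13). Tcf7l1 was called without KO ESCs at 0 h (-0.17, limma adjusted p = 0.026) or at 4 h (-0.11, limma adjusted p = 0.036) and with 4 times the pseudocount (limma adjusted p = 0.049), and Ctnnb1 without WT EBs at 0 h (-0.07, limma adjusted p = 0.024). Genes called with a falling level were 21.4% of all tested, genes with a rising one 0.236%, and the median slope was -0.05. The 30 rising and 2723 falling became 175 and 1171 with equal column totals and 234 and 818 with median-ratio scaling. A slope here depends on how the authors scaled each library, and gives no half-life.

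The share of the 0 h level of Tcf7 left at 8 h was 42.4% in KO EBs (counting interval 21.7 to 78.5%) and 51.9% in WT EBs (19.3 to 126%). In ESCs it was 23.3% in KO (6.95 to 62.7%) and 18.2% in WT (4.23 to 54.3%). At 4 h KO ESCs were at 139% of their 0 h level (75.2 to 257%), so the fall there came between 4 and 8 h. The Tcf7 call was lost without KO EBs at 8 h, KO ESCs at 8 h or WT ESCs at 8 h (slopes -0.19, -0.11 and -0.18), and with median-ratio scaling (-0.14, adjusted p = 0.051). It was also lost without both EB libraries of 8 h (-0.20, adjusted p = 0.18).

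Ctnnb1 kept 96.5% at 8 h in KO EBs (84.6 to 109.9%) and 36.2% in WT EBs (30.1 to 43.2%). In ESCs it stood at 123% in KO (105 to 146%) and 91.2% in WT (77.9 to 106%). The WT EB share was close to the median of genes in the same library, 34.4%; the medians were 72.1% in KO EBs, 90.1% in KO ESCs and 68.0% in WT ESCs. The slope was higher in KO EBs than in WT EBs by 0.18 ± 0.05 per hour, which did not pass (limma adjusted p = 0.10). It was called without WT EBs at 0 h (0.31, limma adjusted p = 0.047) or at 4 h (0.18, limma adjusted p = 0.037), and was at -0.0011 without both EB libraries of 8 h. In ESCs the slope difference was 0.05 ± 0.05 (limma adjusted p = 0.79).

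Tcf7l1 at 8 h was at 60.1% of its 0 h level in KO EBs (27.4 to 125%), 37.6% in WT EBs (15.1 to 84.2%), 46.8% in KO ESCs (20.1 to 101%) and 78.4% in WT ESCs (35.1 to 167%). These intervals overlap one another. For the other members the depth allowed a share in some conditions only. Wnt7b in KO ESCs was at 97.9% at 8 h (48.9 to 195%) and Fzd2 in KO ESCs at 62.8% (20.0 to 179.95%). Lef1 in WT EBs was at 45.8% (16.2 to 115%).

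For KO against WT, none of the 3 members passed the test of a slope difference with all 12 libraries, and for Ctnnb1 in EBs the call depended on the libraries used, as given above. Genes called were 0.0394% higher and 0% lower in ESCs, and 1.19% higher and 0% lower in EBs. Among the 3 members reported for slopes, 1 comparison had an unadjusted p under 0.05, that of Ctnnb1 in EBs (0.0047).

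**Figure D4:**
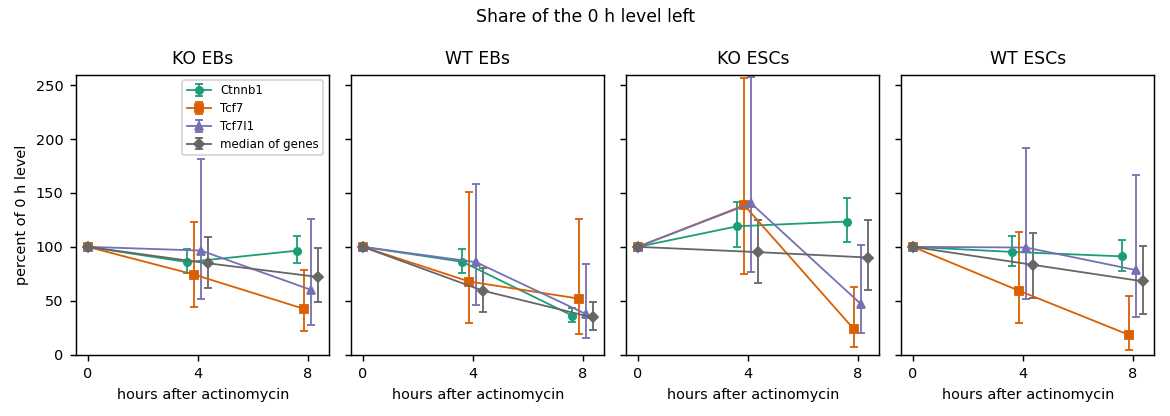
Percent of the 0 h level left at 4 and 8 h for Ctnnb1, Tcf7 and Tcf7l1 in each condition, with 95% counting intervals, beside the median of all genes with at least 10 read equivalents at 0 h, with bars for its quartiles. At 8 h Ctnnb1 stood at 36.2% in WT EBs and at 91.2% or more in the other conditions.

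The rest of the pathway, 105 genes in 8 role groups of which 70 passed the filter, was called about as often as all genes in the genotype comparisons. KO against WT gave 6 higher and 1 lower of 70 in EBs, with a median of 0.03 against 0.09 over all genes, and 7 higher and 2 lower in ESCs, with a median of 0.36 against 0.18. The shares over all genes were 7.66% higher and 1.56% lower in EBs, and 10.9% higher and 3.27% lower in ESCs. The EB count was 2 without KO EBs at 0 h or at 8 h and 3 without WT EBs at 0 h or at 8 h, and the ESC count was 14 without WT ESCs at 0 h or at 8 h. In EBs, 3 of the 4 genes that Tcf7l1 represses in ESCs were called higher over the 3 times, and none of 14 receptors, 11 extracellular and receptor-level inhibitors or 6 targets passed. Nanog and Klf2 were higher in KO at each time. At 0 h Esrrb was not (1771 in KO EBs, 1852 in WT EBs), nor was Tfcp2l1 (722 and 867). Both were higher in KO at 4 and 8 h, where WT had fallen further.

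In EBs Nanog, a core pluripotency factor, had levels of 2542, 1883 and 745 in KO, against 963, 306 and 85.5 in WT. It rose by 2.33 ± 0.23 (limma adjusted p = 1.48e-05), higher at 3 of 3 times. Klf2, a naive pluripotency factor, rose by 2.49 ± 0.45 (limma adjusted p = 0.0023), a call lost without KO EBs at 0 h or at 8 h (2.34 in both) and without the variance trend. Axin1, the constitutive scaffold of the destruction complex, rose by 1.29 ± 0.31 (limma adjusted p = 0.016). Wnt11, mostly a ligand of noncanonical signalling, fell by 2.92 ± 0.75 (limma adjusted p = 0.022). Its levels were 19.5, 9.38 and 0 in KO EBs, compared with 139, 90.2 and 121 in WT EBs. Outside WT EBs the Wnt11 level was 36.5 at most, so the gene passed the filter on low levels only through WT EBs. The Wnt11 p-value carries that selection. The Axin1 call was lost without either genotype's EB library of 0 h or of 8 h (1.03 to 1.41). It was also lost with ribosomal protein scaling (0.91), with additive time terms and with no variance trend. The Wnt11 call was lost without any 1 of the 6 EB libraries (-3.08 to -2.60), with additive time terms and with the smaller pseudocount. Without both EB libraries of 8 h the calls of Axin1, Wnt11 and Klf2 were lost.

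In ESCs Klf2 rose by 3.97 ± 0.45 (limma adjusted p = 5.79e-05), with levels of 13480, 8516 and 5555 in KO, against 5550, 214 and 125 in WT. The gap widened after 0 h. Bcl9l, a beta-catenin coactivator, rose by 2.74 ± 0.51 (limma adjusted p = 0.0024). Lgr4, a receptor for R-spondin, rose by 2.46 ± 0.48 (limma adjusted p = 0.0035). Znrf3, a ubiquitin ligase that removes Frizzled receptors from the membrane and is a Wnt target, rose by 2.13 ± 0.43 (limma adjusted p = 0.0044), with levels of 181, 329 and 386 in KO ESCs, against 45.0, 47.5 and 90.9 in WT ESCs. Tle5, a member of the Groucho family, fell by 1.59 ± 0.22 (limma adjusted p = 0.00029). The Bcl9l call was lost without KO ESCs at 0 h or at 8 h (2.35 in both). The Lgr4 call was lost without those (1.55 in both) or without WT ESCs at 0 h or at 8 h (2.26 in both).

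Porcn, the acyltransferase that Wnt ligands need for secretion, moved in opposite directions in EBs and ESCs. Its levels were 835, 875 and 897 in KO EBs, compared with 574, 300.1 and 185 in WT EBs, and 266, 400.5 and 209 in KO ESCs, against 944, 1163 and 1512 in WT ESCs. No KO library overlapped the WT libraries of its cell type. Porcn rose by 1.43 ± 0.28 in EBs (limma adjusted p = 0.0046) and fell by 2.04 ± 0.28 in ESCs (limma adjusted p = 0.00029). The difference between the cell types was 3.47 ± 0.40 (limma adjusted p = 0.00017), in a comparison that called 2.86% of genes. That comparison was added after the data were seen. Porcn was picked for it by its calls in the EB and ESC comparisons, so this p-value carries that selection. That difference stayed called in all settings run, at 2.96 to 3.71. The EB call alone was lost without KO EBs or WT EBs at 0 h or at 8 h, at 1.44 and 1.51, and without the variance trend or with additive time terms.

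**Figure D5:**
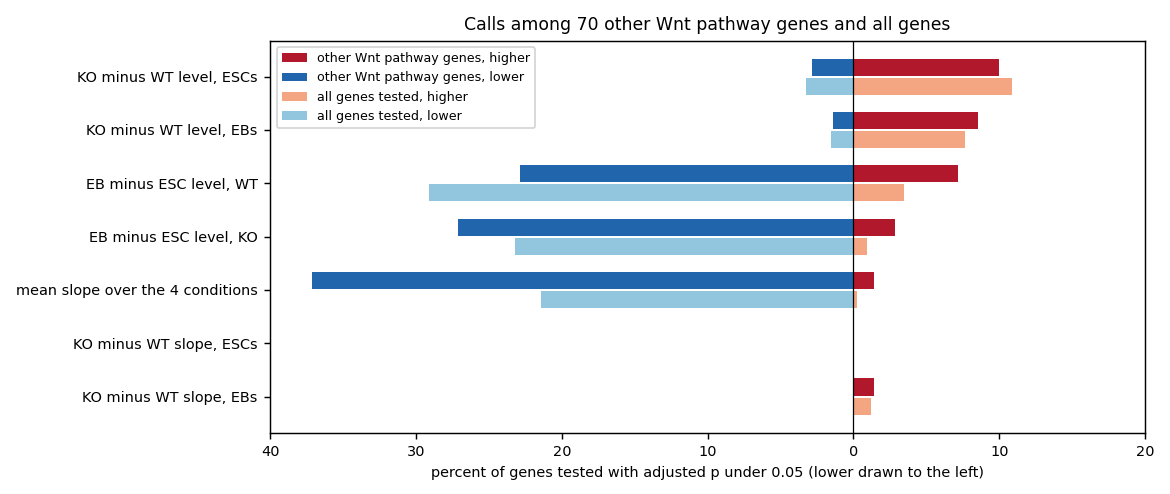
Percent of genes with a limma adjusted p under 0.05, higher drawn to the right and lower to the left, for the 70 other Wnt pathway genes tested and for all 12704 genes, in each comparison. The EB minus ESC comparisons and the mean slope have mostly lower calls in both sets.

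Between cell types, 2 of 70 pathway genes were called higher and 19 lower in KO, against 0.929% and 23.2% of all genes, and 5 higher and 16 lower in WT, against 3.49% and 29.1%. These counts depend on scaling and on single libraries. With equal column totals they were 2 higher and 0 lower in KO, and 10 higher and 5 lower in WT. Leaving out single libraries gave 1 to 23 calls in KO, with 1 without KO EBs at 0 h or at 8 h, 11 without KO EBs at 4 h and 7 without KO ESCs at 0 h or at 8 h. In WT it gave 10 to 22 calls, with 10 without WT EBs at 0 h or at 8 h. All 4 genes repressed by Tcf7l1 in ESCs fell in KO EBs and 3 of 4 in WT EBs relative to ESCs. Nanog fell by 2.97 ± 0.23, Tfcp2l1 by 2.92 ± 0.27 and Esrrb by 2.35 ± 0.25 in WT (limma adjusted p = 8.14e-07, 3.31e-06 and 1.20e-05), and Tle5 fell by 2.35 ± 0.22 in WT (limma adjusted p = 3.9e-06). In KO Tfcp2l1 fell by 1.65 ± 0.27 (limma adjusted p = 0.0014), which was lost with equal column totals (-0.97) and median-ratio scaling (-0.98).

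In WT, the receptor Fzd7 rose in EBs by 2.82 ± 0.60, the secreted inhibitor Frzb by 2.49 ± 0.73, the ligand Wnt4 by 1.68 ± 0.58 and Wls, which carries ligands to the membrane, by 1.45 ± 0.52 (limma adjusted p = 0.0021, 0.016, 0.036 and 0.045). In KO, the inhibitor Dkk2 rose by 1.96 ± 0.63 and Porcn by 1.60 ± 0.28 (limma adjusted p = 0.035 and 0.0021). In the same comparison the inhibitor Apcdd1 fell by 2.19 ± 0.44, the receptor Fzd5 by 1.78 ± 0.42 and the corepressor Tle3 by 1.69 ± 0.43 (limma adjusted p = 0.0040, 0.0092 and 0.013). Each of these calls was lost without some single library. For Fzd7 and Apcdd1 it was the 0 h or the 8 h EB library of that genotype (2.52 and -1.54), and for Frzb any WT EB library (2.40 to 2.65). For Porcn, Fzd5 and Tle3 it was the 0 h or the 8 h library of KO EBs or of KO ESCs (1.10 to 1.61, -2.27 to -1.59 and -1.72 to -1.41). Wnt4, Wls and Dkk2 were each lost without 8 of the 12, at 0.81, 1.09 and 1.11 in the lowest of those fits. Wnt4 and Wls were also lost with no filter. Frzb, at 77.7 to 123 in WT EBs and at most 47.7 elsewhere, passed the filter mainly through WT EBs. Dkk2 passed it partly through KO EBs. The p-values of Frzb and Dkk2 carry that selection. Background was itself higher in EBs: the silent families' 95th percentile was 44.8, 59.3 and 71.8 in WT EBs, against 21.1, 18.8 and 30.7 in WT ESCs. Wnt4 in WT EBs at 8 h, 73.9, lay near that level. Dkk2 in KO EBs at 0 h, 39.9, lay under the 45.2 of its library. Fzd7 in WT EBs at 8 h, 60.5, lay under the 71.8 of its library. In WT ESCs Fzd7 had 179, 0 and 0 at 0, 4 and 8 h, so the size of its rise depends on the pseudocount. That rise ran from 1.69 to 4.1 over the settings other than single libraries. The calls of Apcdd1, Fzd5 and Tle3 were also lost with equal column totals.

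Over the hours after actinomycin, 26 of the 70 fell and 1 rose, against 21.4% and 0.236% of all genes. Leaving out single libraries gave 11 to 28 calls, the fewest without KO EBs at 0 h, and WT EBs at 0 h (13), KO EBs at 8 h (15), KO ESCs at 0 h (16) and WT ESCs at 0 h (17) also moved the count by over 1.5 times. By role, 10 of 15 tested genes of transduction and the destruction complex fell, 6 of 14 receptors, 4 of 12 nuclear partners and 0 of 11 extracellular and receptor-level inhibitors; the groups were not tested against each other. Klf2 fell by 0.40 ± 0.05 per hour (limma adjusted p = 8.43e-05), the homeobox target gene Gbx2 by 0.36 ± 0.10, the growth regulator Myc by 0.35 ± 0.10 and Fzd7 by 0.28 ± 0.07 (limma adjusted p = 0.020, 0.024 and 0.0067). Cd44, a cell surface receptor and Wnt target, rose by 0.12 ± 0.04 (limma adjusted p = 0.049). The Klf2 call held without each library; the calls of Gbx2, Myc and Fzd7 were each lost without 5 of the 12, at -0.20, -0.17 and -0.14 in the fit nearest 0, and that of Cd44 without 9 (0.05 to 0.14). The 5 were the 0 h libraries of KO EBs, WT EBs and WT ESCs and the 8 h library of KO EBs for all 3 genes, and KO ESCs at 0 h for Gbx2 or at 8 h for Myc and Fzd7. Between genotypes, 1 of 70 differed in slope in EBs: Esrrb by 0.45 ± 0.08 (limma adjusted p = 0.033), lost under all 3 other scalings (0.30 to 0.36) and without 8 of the 12 libraries. None was called in ESCs by limma, where 7 had an unadjusted p under 0.05.

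The genes whose profile over the 12 libraries was most like a member's were found by Pearson's r of log2 levels, as a description over libraries that share depth and scaling. They were Ppfibp1 and Blvrb for Wnt7b (0.94 and 0.94), Zfp992 and Arhgap29 for Fzd2 (0.92 and 0.92), and Nabp2 and Rpl28 for Ctnnb1 (0.98 and 0.98). For Tcf7 they were Prpf18 and Fam102a (0.94 and 0.93), and for Tcf7l1 Mapk8 and Sptlc2 (0.96 and 0.95). For Sp5 they were Klhl13 and Nup62cl (0.95 and 0.94), and for Cdx1 Slc52a3 and Cobl (0.95 and 0.92).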

How the data were processed

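Poly(A) RNA was sequenced from its 3′ ends in 12 libraries, with fragmentation before oligo(dT) selection and strand-specific cDNA, per the labels' protocols. Tools in the submitters' processing notes are Bowtie2 2.1.0, Bowtie and CASAVA 1.8.2, with the build mm10; the counting and scaling steps are not given in the sources used. The authors deposited 1 table of normalized levels, a signal per RefSeq transcript. Of 19746 entries, 19535 were matched to symbols on GRCm38.p6 and 98 more in GENCODE; 113 kept their ID and 38 identical duplicates were dropped.

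Low values were multiples of a step. A read was taken as 50 steps, inferred from the values and stated nowhere, which gave read equivalents, their exact Poisson intervals (95%) and a bound of 3 reads for a library at 0. These cover counting error only. Since steps are fractions of a read, no count model was run.

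limma 3.58.1 in R 4.3.3 was fitted to log2(level + 8.58), which understates changes of low genes, for 12704 entries with a mean level of at least 42.9. That mean is over all 12 libraries, so a low gene can pass through a group where it is high. Each condition had a level at 4 h and a slope, leaving 4 residual degrees of freedom and a prior worth 11.1 more. A level difference averages 0, 4 and 8 h and so mixes the starting level with decay. Benjamini-Hochberg adjustment ran over all tested entries, with a threshold of 0.05. The fit was tested on simulated data.

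The members and gene lists were chosen with earlier results of these data known. Other pathway genes named are, for each comparison, up to 4 called genes a direction with the largest change and, for levels, the same sign at each time. Like profiles are the top 2 by Pearson's r; those of Lef1 are not reported here. Alternatives were other pseudocounts, no filter, 3 scalings, no variance trend, additive time terms, each library left out, and both EB libraries of 8 h left out. The difference of the genotype effect between cell types, for named pathway genes that are not members, was added after the data were seen. Protein sequences, and promoters of Wnt7b, Fzd2 and Cdx1, were not used here.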

Additional observations from a re-analysis of the deposited data

Results flagged for a closer look

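Wnt7b and Fzd2 stood out because the EB minus ESC difference had opposite signs in KO and WT at every time. For Wnt7b it was -1.67, -1.74 and -2.65 (log2) at 0, 4 and 8 h in KO, and 1.73, 3.36 and 0.90 in WT. For Fzd2 it was -1.29, -1.93 and -1.73 in KO, and 2.59, 2.30 and 3.75 in WT. WT ESCs were at 0 for Wnt7b at 4 h and for Fzd2 at 4 and 8 h, so the added 8.58 sets those sizes; the ratios allowed were at least 1.07 for Wnt7b at 4 h and at least 1.09 for Fzd2 at 8 h, and none for Fzd2 at 4 h, where both libraries were at or under 3 reads. With a WT interval for Wnt7b of 0.72 to 53.0 at 0 h and 0.20 to 104 at 8 h, the sign in WT is not established at each time. Cdx1 stood out because the KO minus WT difference was 1.76, 3.24 and 3.43 in EBs, and -1.65, -0.65 and -1.79 in ESCs. These differences between the groups were not tested, since the members were chosen with the ESC comparison known.

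For the other pathway genes named in the genotype comparisons, the KO minus WT difference in EBs was tested against that in ESCs. These genes had been picked as the largest calls of those comparisons, so the p-values of this test carry that selection. Porcn, Nanog and Tle5 passed. Znrf3, Lgr4, Bcl9l, Wnt11, Klf2 and Axin1 did not (limma adjusted p = 0.089, 0.115, 0.163, 0.252, 0.260 and 0.532). The EB value minus the ESC value was 3.47 for Porcn, 2.04 for Nanog and 2.02 for Tle5 (limma adjusted p = 0.00017, 0.0022 and 0.0020), in a comparison added after the data were seen. The Tle5 call was lost without KO EBs at 8 h (1.89, adjusted p = 0.051), without both EB libraries of 8 h (1.60) and without the variance trend. The Nanog call was lost with additive time terms (2.04, adjusted p = 0.095) and without the variance trend. The Porcn call held in every setting run.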

How the results depend on the processing

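With 1 library a group, the scatter around each condition's line stands in for replicate error, and depth limits every member but Ctnnb1. No paired analysis was possible because the labels number no replicates and each group has 1 library. Numbers of genes called (adjusted p under 0.05) moved by over 1.5 times as follows. KO against WT in EBs called 1171 genes, 503 with additive time terms, 353 with no variance trend and 126 without both EB libraries of 8 h (251 to 1248 leaving out single libraries). In ESCs it called 1797, then 1047 without the trend and 1142 with additive terms (717 to 1794). EB against ESC in KO called 3066, then 237 with equal column totals, 172 with median-ratio scaling, 618 with ribosomal protein scaling, 111 without the trend, 723 with additive terms and 278 without both EB libraries of 8 h (172 to 3387). In WT it called 4145, then 2033, 2008 and 1780 under those scalings in the same order, and 1662 without both libraries (2094 to 4258). The mean slope called 2753, then 1346 with equal totals, 1052 with median-ratio scaling, 1636 without the trend and 633 without both libraries (919 to 3040). The slope difference in EBs called 151, then 4 with no filter, 5 with ribosomal protein scaling and 0 with equal totals, median-ratio scaling, no trend or without both libraries (0 to 443). In ESCs it called 5, then 1 with the larger pseudocount, equal totals or ribosomal protein scaling and 0 with the smaller pseudocount, no filter, median-ratio scaling, no trend or without both libraries (0 to 10).

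Scaling moved the median of all genes for EB minus ESC from -0.61 in KO to 0.04, 0.04 and -0.25, and from -0.50 in WT to 0.34, 0.14 and 0.32, with equal totals, median-ratio and ribosomal protein scaling. Signs turned as follows, and beyond those shifts the cause was not tested. With equal totals, EB minus ESC became 0.054 in KO and 0.11 in WT for Ctnnb1, 0.20 and 0.17 for Tcf7, 0.53 in KO for Lef1 and 0.15 in WT for Tcf7l1. With median-ratio scaling it became in KO 0.045 for Ctnnb1, 0.19 for Tcf7 and 0.53 for Lef1. With ribosomal protein scaling it became 0.27 in KO for Lef1, and in WT 0.093 for Ctnnb1, 0.16 for Tcf7 and 0.13 for Tcf7l1. The Ctnnb1 mean slope became 0.0017 with equal totals and 0.019 with median-ratio scaling. The Tcf7l1 slope difference in EBs became -0.039, -0.015 and -0.074 under the scalings in that order. Without both EB libraries of 8 h, KO minus WT in EBs became 1.53 for Fzd2, EB minus ESC in WT became -0.17 for Lef1, and the slope difference in EBs became -0.0011 for Ctnnb1 and 0.03 for Tcf7. Leaving out single libraries, KO minus WT in EBs ranged from -0.62 to 1.13 for Fzd2, -0.42 to 0.10 for Ctnnb1 and -1.57 to 0.17 for Lef1. EB minus ESC ranged in KO from -1.45 to 0.029 for Tcf7, -0.40 to 0.64 for Lef1 and -0.13 to 1.44 for Cdx1, and in WT from -0.17 to 1.58 for Lef1. The slope difference ranged in ESCs from -0.33 to 0.41 for Tcf7 and -0.35 to 0.16 for Tcf7l1, and in EBs from -0.082 to 0.0082 for Tcf7 and -0.034 to 0.20 for Tcf7l1. No named pathway gene reversed in any setting run. Additive time terms do not apply to slopes.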
